A study of Mus musculus with 4 samples.

Results

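Cells hold their cholesterol within narrow limits by balancing synthesis, uptake and export. When sterol in the endoplasmic reticulum is low, the SREBP2 protein is released from its INSIG anchor and switches on genes of synthesis and uptake. When sterol is high, oxysterols activate the LXR nuclear receptors, which switch on the exporters ABCA1 and ABCG1, a response best known from macrophages that have taken up dying cells. Expression of 8 genes of this system was examined. They were chosen by name and comprised the synthesis enzymes *Hmgcs1*, *Idi1*, *Fdps* and *Sqle*, the regulators *Srebf2* and *Insig1*, and the exporters *Abca1* and *Abcg1*. All 8 were found among the 25655 genes measured.

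The RNA came from hearts of male wild-type (WT) C57BL/6J mice and of mice lacking the inhibitory receptor CD300a in the whole body on a C57BL/6 background (*Cd300a-/-*). Mice aged 8 to 12 weeks underwent 60 minutes of coronary ligation and then reperfusion, and hearts were taken on day 3. Cells sorted as CD45+CD11b+Ly6G+ were divided by surface SiglecF into SiglecF hi and SiglecF lo subsets. Each of the 4 libraries pooled 8 mice, so each group was 1 library and no difference had a replicate check. Library totals for SiglecF lo cells were 9631901 counts (WT) and 10988619 counts (*Cd300a-/-*), and for SiglecF hi cells 19278243 and 17632989. Where 4 values follow each other below, this is their order.

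The labels were checked first. *Cd300a* had 3024 and 6640 counts in the SiglecF lo and SiglecF hi libraries of WT, against 28 and 27 in those of *Cd300a-/-*. *Siglecf* was at 11.3 TPM (transcript abundance scaled for gene length and library size) for WT and 15.3 TPM for *Cd300a-/-* among SiglecF lo cells, against 354 and 405 TPM among SiglecF hi cells. *Ly6g*, the gene of the neutrophil sorting antigen, went the other way, at 330 and 889 TPM in the SiglecF lo libraries and only 11.1 and 41.9 in SiglecF hi. The *Ly6g* transcript level of the SiglecF hi libraries was low although their cells were sorted as Ly6G+. It stands beside the neutrophil and macrophage marker levels given next, and its reason was not tested. Values of the SiglecF hi libraries are therefore given as those of cells labelled SiglecF hi, not of a population shown here to be neutrophils. The sort read Ly6G protein, which a transcript level does not measure. *Ptprc*, which encodes CD45, stayed between 608 and 710 TPM, and *Itgam*, which encodes CD11b, between 337 and 550.

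The 9 neutrophil markers summed to 157879 TPM for WT and 206147 TPM for *Cd300a-/-* among SiglecF lo cells, but to 29735 and 35074 TPM among SiglecF hi cells. *S100a9*, the most abundant of them, went from 76228 to 13719 TPM between the WT subsets and from 89228 to 15355 between the *Cd300a-/-* subsets. The neutrophil markers differed unequally. In WT *Retnlg* went from 12110 to 590 TPM, but *Csf3r* from 1443 to 1069, *Mmp9* from 1440 to 1297 and *Trem1* from 1206 to 840. In *Cd300a-/-* *Csf3r* went from 1750 to 1109, *Mmp9* from 2257 to 1684 and *Trem1* from 1272 to 942. The summed level of the 13 macrophage markers went in the opposite direction, at 2948 and 2790 TPM among SiglecF lo cells and 7241 and 6554 TPM among SiglecF hi cells. Their most abundant gene was the complement gene *C1qb*, at 839, 754, 2257 and 2036 TPM. The markers did not all follow the sum. *Lyve1* was at 14.0, 16.6, 9.41 and 17.2 TPM and *Timd4* at 3.40, 4.63, 1.89 and 4.57 TPM, both named after their values were seen. In SiglecF lo cells 2 of the 12 macrophage markers above 10 TPM on average had a genotype ratio (defined below) over 0.5 and 2 had one under −0.5. They were *Cd163* (1.28) and *Mrc1* (0.66), and *Fcgr1* (−1.22) and *Cx3cr1* (−0.75). In SiglecF hi cells 2 were higher and 0 lower. The part of these marker differences in the cholesterol genes was not tested. In sorted bulk RNA, fewer cells of a type and less RNA per cell cannot be told apart.

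A ratio is given below as log2 of the ratio of TPM + 1, with a 95% interval that covers counting error only and neither the animals nor the sort. Genes with a mean above 10 TPM over the 4 libraries were counted, which left 6523 genes and 6 of the 8 cholesterol genes. *Idi1* (mean 9.08 TPM) and *Sqle* (mean 3.43 TPM) were under that limit, and their values are given without being counted. A gene was called higher or lower when its ratio passed 0.5 in either direction. The typical gene was higher in SiglecF hi, with a median ratio over the 6523 genes of 0.53 in WT and 0.61 in *Cd300a-/-*. Subset ratios were therefore taken relative to that median. The median genotype ratio was −0.02 in SiglecF lo and 0.04 in SiglecF hi, and genotype ratios were left as measured.

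The first question was whether loss of CD300a went with different cholesterol gene expression in SiglecF lo cells. Of the 6 genes counted, 1 was higher in *Cd300a-/-* and 0 were lower, where 16.4% and 19.9% of all genes counted were called higher and lower. The gene was *Hmgcs1*. In SiglecF hi cells 0 of the 6 were higher and 1, *Fdps*, was lower, against 3.31% and 3.46% of all genes. The second question was how the subsets differed within a genotype. In WT, 2 of the 6 genes were higher in SiglecF hi, *Hmgcs1* and *Abca1*, and 0 were lower, against 19.3% and 20.9% of all genes. In WT *Hmgcs1* exceeded 10 TPM only in SiglecF hi, so its call is partly fixed by the filter. In *Cd300a-/-*, *Abca1* was higher and *Fdps* lower, 1 of 6 each, against 21.2% and 23.6%. Without subtracting the median, 3 of 6 were higher in WT and 4 of 6 in *Cd300a-/-*, and 0 were lower in either. The same count over all genes was then 51.9% higher and 7.47% lower in WT, and 56.6% and 7.97% in *Cd300a-/-*. These shares over all genes also stand beside the counts given here for the pathway and marker lists. A list count near its share is that of the typical gene and no result about the list.

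**Figure D1:**
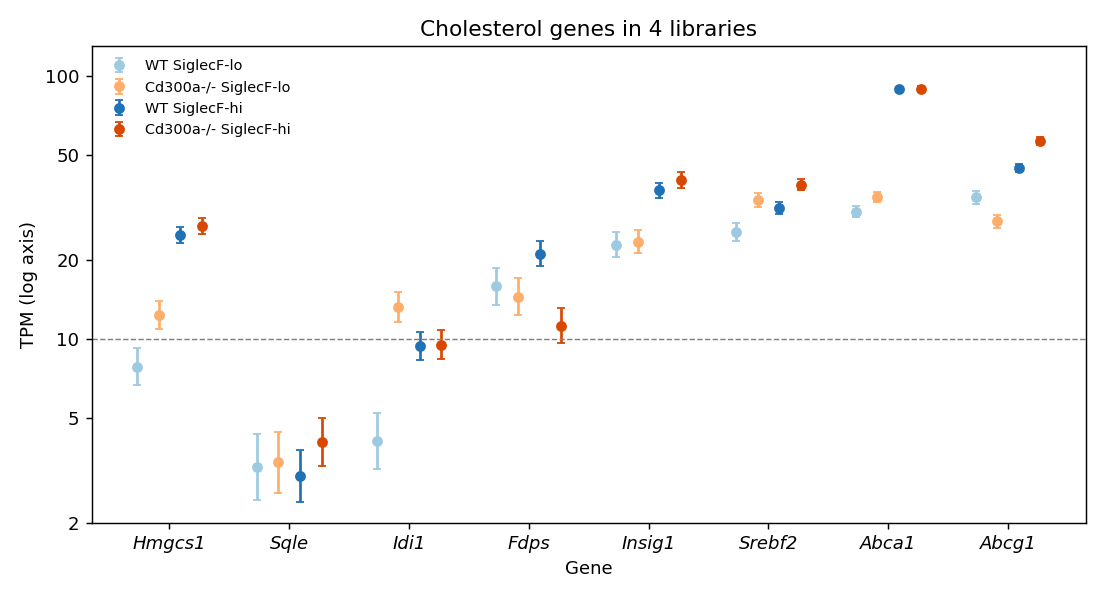
TPM of the 8 cholesterol genes (log axis) in the 4 libraries, 1 point per library, with bars for the 95% counting interval and a dashed line at 10 TPM. *Abca1* reached 89.2 and 89.4 TPM in the SiglecF hi libraries, while *Sqle* stayed between 3.02 and 4.06 TPM.

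*Hmgcs1* (ENSMUSG00000093930, chromosome 13, 120151915 to 120169796, plus strand, GRCm39) encodes the cytosolic HMG-CoA synthase, an early enzyme of the mevalonate pathway. It was at 7.84 TPM for WT (147 counts) and 12.4 TPM for *Cd300a-/-* (256) among SiglecF lo cells, and 24.9 (798) and 26.8 (769) among SiglecF hi cells. Both SiglecF hi libraries thus lay above both SiglecF lo libraries, and the lowest of the 4 was WT SiglecF lo. The genotype ratio was 0.60 (95% interval 0.33 to 0.86) in SiglecF lo and 0.10 (−0.04 to 0.24) in SiglecF hi. The SiglecF lo ratio exceeded the SiglecF hi ratio by 0.50 (0.20 to 0.79). The subset ratio relative to the median was 1.03 (0.80 to 1.25) in WT and 0.44 (0.25 to 0.63) in *Cd300a-/-*, or 1.55 and 1.06 as measured. With a filter that asked for over 10 TPM in both libraries compared, the genotype ratio in SiglecF lo and the WT subset ratio were no longer counted, because the WT SiglecF lo level is below 10. Under the mean filter *Hmgcs1* passed through the other libraries, so its WT subset call is partly fixed by that filter.

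*Idi1* (ENSMUSG00000058258, chromosome 13, 8935537 to 8942487, plus strand) encodes the isomerase that makes the reactive allylic isoprene unit. It was at 4.10 TPM for WT (65 counts) and 13.2 TPM for *Cd300a-/-* (232) among SiglecF lo cells, and 9.44 (256) and 9.52 (231) among SiglecF hi cells. The SiglecF hi libraries were alike, and the SiglecF lo libraries lay on either side of them. The genotype ratio was 1.48 (1.15 to 1.81) in SiglecF lo and 0.01 (−0.22 to 0.24) in SiglecF hi, a difference of 1.47 (1.07 to 1.88). Relative to the median, the subset ratio was 0.51 (0.18 to 0.83) in WT and −1.05 (−1.29 to −0.81) in *Cd300a-/-*. As measured it was 1.04 and −0.44, the second within the threshold.

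*Fdps* (ENSMUSG00000059743, chromosome 3, 89000895 to 89009266, minus strand) encodes farnesyl diphosphate synthase, the branch point between sterols and the isoprenoids that anchor small GTPases to membranes. Its level was 15.9 TPM for WT (145 counts) and 14.5 TPM for *Cd300a-/-* (146) among SiglecF lo cells, and 21.1 (329) and 11.2 (157) among SiglecF hi cells. The lowest library was here *Cd300a-/-* SiglecF hi and the highest WT SiglecF hi. The genotype ratio was −0.85 (−1.11 to −0.60) for SiglecF hi cells and −0.12 (−0.43 to 0.19) for SiglecF lo cells. The subset ratio relative to the median was −0.14 (−0.40 to 0.13) in WT and −0.95 (−1.25 to −0.65) in *Cd300a-/-*, or 0.39 and −0.34 as measured, so that in WT its sign depends on the centring. A gene on the same strand, *Gm43738*, overlaps *Fdps* and had 12 counts in *Cd300a-/-* SiglecF lo and 0 elsewhere. Processed copies of *Fdps* and of other synthesis genes exist in mammalian genomes, and how reads shared with such copies were counted is not given in the sources used here, which leaves these levels uncertain.

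*Sqle* (ENSMUSG00000022351, chromosome 15, 59186926 to 59203041, plus strand) encodes squalene epoxidase, the first oxygen-requiring step of sterol synthesis. It had 46, 53, 73 and 88 counts. Levels were 3.25, 3.39, 3.02 and 4.06 TPM in that order, and it ranked last of the 8 genes in each library. The genotype ratio was 0.05 (−0.39 to 0.49) in SiglecF lo and 0.33 (−0.01 to 0.68) in SiglecF hi, so a difference was not detectable at this depth. The subset ratio relative to the median was −0.61 (−1.01 to −0.20) in WT, past the threshold, and −0.41 (−0.79 to −0.02) in *Cd300a-/-*, within it. As measured the ratios were −0.08 and 0.21.

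The 4 enzymes thus had different profiles. Over the list of 20 sterol synthesis enzymes, 9 were above the limit. In SiglecF lo cells 1 of the 9 was higher in *Cd300a-/-* (*Hmgcs1*) and 1 lower, against 16.4% and 19.9% of all genes. The median genotype ratio was 0.14. The lower gene was the phosphomevalonate kinase gene *Pmvk*, at −0.52 (−0.75 to −0.29), with 36.4 and 25.0 TPM in WT and *Cd300a-/-*. In SiglecF hi cells 0 of 9 were higher and 1 lower (*Fdps*), with a median of 0.08. Summed over the 20 enzymes, expression was 231, 252, 283 and 273 TPM, lowest for WT SiglecF lo.

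Between subsets, more of these enzymes lay below the typical gene than above it, while their medians as measured were 0.18 in WT and −0.34 in *Cd300a-/-*. Of all genes, 20.9% were lower in SiglecF hi in WT and 23.6% in *Cd300a-/-* on this scale. In WT 1 of 9 was higher in SiglecF hi and 3 were lower, with a median relative to all genes of −0.35. In *Cd300a-/-* 0 were higher and 6 lower, with a median of −0.95, or −0.43 when genes averaging above 1 TPM were included. Those lower in both genotypes included *Pmvk*, at −1.55 and −1.04, and *Sc5d*. *Sc5d*, a late desaturase, was lower on both scales, at −1.03 and −1.56 relative to the median and −0.51 and −0.95 as measured. In *Cd300a-/-* *Fdps*, *Msmo1* (−1.15) and *Mvd* (−1.06) were lower as well. As measured 2 of 9 were lower in each genotype, and 2 were higher in WT and 3 in *Cd300a-/-*. *Msmo1* was at 30.0 and 37.5 TPM in the SiglecF lo libraries of WT and *Cd300a-/-*, and at 34.1 and 25.6 in SiglecF hi. *Mvd* lay between 10.6 and 14.8 TPM throughout. The neutrophil and macrophage marker sums given above moved between the same libraries, and their part was not tested.

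Of the 8 genes of the isoprenoid branch, which use farnesyl diphosphate for prenylation, dolichol and ubiquinone, 3 were above the limit. In SiglecF lo 2 of the 3 were lower in *Cd300a-/-*, the subunits of the dolichol-forming transferase. *Dhdds* was at 27.9 TPM in WT and 14.8 in *Cd300a-/-*, with a ratio of −0.87 (−1.07 to −0.67). *Nus1* was at 21.8 and 13.2 TPM, with a ratio of −0.68 (−0.86 to −0.49). Neither passed the threshold in SiglecF hi, at −0.33 and −0.17. Relative to the median, *Nus1* was higher in SiglecF hi of *Cd300a-/-* (0.77) and *Dhdds* lower in SiglecF hi of WT (−0.86), against 1.39 and −0.34 as measured. The subset medians of the list were 0.07 in WT and −0.26 in *Cd300a-/-*, and 0.60 and 0.35 as measured.

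*Srebf2* (ENSMUSG00000022463, chromosome 15, 82031382 to 82089580, plus strand) encodes SREBP2 itself. It was at 25.5 TPM for WT (688 counts) and 33.7 TPM for *Cd300a-/-* (1001) among SiglecF lo cells, and 31.5 (1450) and 38.6 (1590) among SiglecF hi cells. In each subset the *Cd300a-/-* library had the larger value. The genotype ratio was 0.39 (0.25 to 0.52) in SiglecF lo and 0.28 (0.18 to 0.38) in SiglecF hi. Both intervals lay above 0 and both ratios stayed within the threshold. The subset ratio relative to the median was −0.23 (−0.36 to −0.11) in WT and −0.42 (−0.53 to −0.31) in *Cd300a-/-*, or 0.29 and 0.19 as measured, and passed the threshold on neither scale.

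*Insig1* (ENSMUSG00000045294, chromosome 5, 28276361 to 28283660, plus strand) encodes the anchor that holds SREBP in the endoplasmic reticulum and is itself an SREBP target. It was at 22.9 TPM for WT (317 counts) and 23.5 TPM for *Cd300a-/-* (359) among SiglecF lo cells, and 36.8 (871) and 40.3 (853) among SiglecF hi cells. The genotypes hardly differed, their ratio being 0.04 (−0.17 to 0.25) for SiglecF lo cells and 0.13 (−0.01 to 0.26) for SiglecF hi cells. The subset ratio of 0.66 in WT and 0.75 in *Cd300a-/-* was close to that of the typical gene, leaving 0.14 (−0.04 to 0.32) and 0.14 (−0.03 to 0.31) relative to the median.

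Of the 10 genes that regulate SREBP, 9 were above the limit. In SiglecF lo 2 of the 9 were higher in *Cd300a-/-* and 0 lower, against 16.4% and 19.9% of all genes, with a median of 0.30. They included *Srebf1*, at 11.2 and 16.4 TPM (0.52, interval 0.31 to 0.73). In SiglecF hi 0 of 9 passed in either direction, with a median of 0.01. Between the WT subsets 1 was higher in SiglecF hi, *Insig2* (1.03, interval 0.73 to 1.34), and 0 were lower, with a median relative to all genes of 0.14. *Insig2* was at 4.65, 6.84, 15.6 and 13.9 TPM, so it passed the limit only through the SiglecF hi libraries and its call there is partly fixed by the filter. Between the *Cd300a-/-* subsets the protease gene *Mbtps1* was higher (0.59) and 2 were lower, *Rnf145* (−0.59) among them, with a median of 0.04. The lower calls depend on the centring. The higher calls do not, since *Mbtps1* in *Cd300a-/-* was at 1.20 as measured and *Insig2* in WT at 1.56. As measured 0 were lower and 6 of 9 were higher in each genotype, *Rnf145* in *Cd300a-/-* was at 0.02, and the medians were 0.66 in WT and 0.66 in *Cd300a-/-*. Over all genes 51.9% were higher as measured in WT and 56.6% in *Cd300a-/-*. *Scap*, the escort of SREBP, was at 10.9, 8.27, 19.3 and 18.3 TPM. Its subset ratio was 0.25 in WT and 0.45 in *Cd300a-/-* relative to the median, within the threshold, but 0.77 and 1.06 as measured, past it. *Scap* was near or under the limit in SiglecF lo and well over it only in SiglecF hi, so these calls as measured are partly fixed by the filter.

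*Abca1* (ENSMUSG00000015243, chromosome 4, 53030787 to 53159895, minus strand) encodes the exporter that loads cholesterol onto lipid-poor apolipoprotein. Its level was 30.6 TPM for WT (1611 counts) and 34.7 TPM for *Cd300a-/-* (2019) among SiglecF lo cells, and 89.2 (8035) and 89.4 (7205) among SiglecF hi cells. The SiglecF hi libraries stood well above the SiglecF lo libraries, and the genotypes were nearly equal in SiglecF hi. On the scale used for subsets, 7 of the 12 macrophage markers above the limit were higher in SiglecF hi in WT and 5 of 12 in *Cd300a-/-*, and 1 was lower in each. As measured 8 were higher and 1 lower in WT, and 10 higher and 0 lower in *Cd300a-/-*. Of these, *Mertk* (9.91, 8.90, 48.8 and 36.3 TPM) passed the limit only through SiglecF hi, so its call is partly fixed by the filter. All 9 neutrophil markers were lower in both genotypes on that scale, and 7 and 6 of them as measured. For *Abca1* the subset ratio relative to the median was 0.99 (0.91 to 1.06) in WT and 0.73 (0.66 to 0.80) in *Cd300a-/-*, or 1.52 and 1.34 as measured. The genotype ratio was 0.18 (0.09 to 0.27) in SiglecF lo and 0.00 (−0.04 to 0.05) in SiglecF hi. The macrophage marker *C1qb* had subset ratios of 0.90 in WT and 0.82 in *Cd300a-/-* on the same scale.

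*Abcg1* (ENSMUSG00000024030, chromosome 17, 31276649 to 31336962, plus strand) encodes the exporter that passes cholesterol to mature HDL. It was at 34.6 TPM for WT (1218 counts) and 28.1 TPM for *Cd300a-/-* (1088) among SiglecF lo cells, and 44.7 (2685) and 56.9 (3059) among SiglecF hi cells. The *Cd300a-/-* library had the smaller value in SiglecF lo and the larger in SiglecF hi. Its genotype ratios were −0.30 (−0.41 to −0.18) and 0.34 (0.27 to 0.41), a difference of −0.64 (−0.77 to −0.50), and neither reached the threshold. The subset ratio relative to the median was −0.17 (−0.26 to −0.07) in WT and 0.38 (0.29 to 0.48) in *Cd300a-/-*, or 0.36 and 1.00 as measured. The exporters therefore differed in order between libraries, *Abcg1* exceeding *Abca1* in TPM in WT SiglecF lo and *Abca1* exceeding *Abcg1* in the other 3.

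Of the 10 genes of efflux and LXR signalling, 9 were above the limit. In SiglecF lo 2 were higher in *Cd300a-/-* and 0 lower, against 16.4% and 19.9% of all genes, with a median of 0.18. The pair comprised the phospholipid transfer protein gene *Pltp*, at 71.5 and 109 TPM (0.60, interval 0.48 to 0.72), and *Smpdl3a*, at 219 and 311 TPM (0.50, interval 0.43 to 0.58). In SiglecF hi 0 of 9 passed, with a median of −0.04. Between the WT subsets 4 were higher in SiglecF hi (*Abca1*, *Rxra*, *Apoe* and *Pltp*) and 0 lower, with a median of 0.21. In WT *Rxra* was at 9.99 TPM in SiglecF lo and 22.2 in SiglecF hi, so its call is partly fixed by the filter. Between the *Cd300a-/-* subsets 3 were higher (*Abca1*, *Apoe* and *Pltp*) and 1 lower (*Smpdl3a*, −1.05), with a median of 0.11. As measured *Smpdl3a* was at −0.44, within the threshold, 6 of 9 genes were higher in WT and 5 of 9 in *Cd300a-/-*, 0 were lower in either, and the medians were 0.74 and 0.72. These counts were near the 51.9% and 56.6% of all genes that were higher as measured.

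*Apoe*, whose product accepts exported cholesterol and which is abundant in macrophages, was at 2637, 2109, 8313 and 8107 TPM. Its subset ratio relative to the median was 1.13 in WT and 1.33 in *Cd300a-/-*. The LXR genes were unequal in level. *Nr1h2*, encoding LXRβ, was at 61.3, 84.4, 103 and 118 TPM in the same order. *Nr1h3*, encoding LXRα, was under the limit at 5.80, 6.65, 13.2 and 9.36 TPM.

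Of the 11 uptake genes, 9 were above the limit. In SiglecF lo 2 were higher in *Cd300a-/-* and 1 lower, against 16.4% and 19.9% of all genes, with a median of −0.13. Among the higher genes *Lrp1*, a large endocytic receptor for apoE-bearing particles, was at 40.5 and 60.9 TPM (0.58, interval 0.52 to 0.64). The scavenger receptor gene *Msr1* was lower, at 53.5 and 31.4 TPM (−0.75, interval −0.88 to −0.62). In SiglecF hi 0 were higher and *Msr1* was again lower (−0.57, interval −0.65 to −0.48), with a median of 0.00.

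Between subsets, 4 of the 9 uptake genes were higher in SiglecF hi and 0 lower in WT (*Lrp1*, *Lrpap1*, *Cd36* and *Olr1*), with a median of 0.43. In *Cd300a-/-* 4 were higher (*Lrpap1*, *Scarb1*, *Cd36* and *Olr1*) and 1 was lower, with a median of 0.32. As measured 7 of 9 were higher in WT and 8 of 9 in *Cd300a-/-*, 0 were lower, and the medians were 0.96 and 0.94. Over all genes 51.9% and 56.6% were higher as measured. *Cd36* was the most abundant of those named, at 114 and 103 TPM in SiglecF lo and 276 and 237 in SiglecF hi of WT and *Cd300a-/-*.

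Of the 12 genes of lysosomal trafficking and esterification, 9 were above the limit. In SiglecF lo the sterol carrier gene *Gramd1a* was higher in *Cd300a-/-* (48.6 and 80.7 TPM, ratio 0.72) and *Stard3* lower (46.3 and 31.2 TPM, ratio −0.55), with a median of 0.18. In SiglecF hi 1 was higher, the acyltransferase gene *Soat2* (25.4 and 42.3 TPM, ratio 0.71), and 0 lower, with a median of −0.25. *Soat1*, the macrophage acyltransferase gene, had a ratio of 0.30 for SiglecF lo cells and −0.16 for SiglecF hi cells. Between the WT subsets *Npc1*, *Lipa* and *Nceh1* were higher in SiglecF hi, by 0.85, 0.89 and 0.89 relative to the median. Together they export cholesterol from the lysosome and hydrolyse its esters. The list had 3 higher, 0 lower and a median of 0.35 in WT, and 1 higher (*Lipa*, 0.71), 0 lower and a median of 0.12 in *Cd300a-/-*. As measured 7 of 9 were higher in each genotype and 0 lower, with medians of 0.87 and 0.73. The share of all genes higher as measured was 51.9% in WT and 56.6% in *Cd300a-/-*.

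Of the 6 oxysterol genes, 3 were above the limit. *Ch25h*, which makes the oxysterol 25-hydroxycholesterol, was at 7.58 TPM for WT (54 counts) and 25.4 TPM for *Cd300a-/-* (200) among SiglecF lo cells, and 21.6 (263) and 13.7 (149) among SiglecF hi cells. The genotypes thus lay in opposite order in the subsets, the ratio being 1.62 (1.23 to 2.01) for SiglecF lo cells and −0.62 (−0.90 to −0.35) for SiglecF hi cells. *Cyp27a1* had ratios of 0.54 and −0.38, and *Hsd3b7* was lower in *Cd300a-/-* in both, at −0.70 and −1.09. Between the WT subsets the 3 genes above the limit were higher in SiglecF hi, with a median of 0.87. *Hsd3b7*, at 8.08, 4.61, 32.4 and 14.7 TPM, passed the limit only through SiglecF hi, and *Ch25h* exceeded 10 TPM in WT only in SiglecF hi, so this count and median are partly fixed by the filter. Between the *Cd300a-/-* subsets *Hsd3b7* was higher (0.87) and *Ch25h* lower (−1.46), with a median of −0.28. As measured the calls were the same, at 1.49 and −0.85, but the median was 0.33, so its sign comes from the centring. The WT median was 1.40 as measured. Of the 8 fatty acid synthesis genes, which SREBP1 controls, 2 were above the limit, and 0 of them passed the threshold in any of the 4 comparisons on the scales used. Their medians were −0.10 and 0.04 for genotype in SiglecF lo and SiglecF hi, and 0.22 and 0.27 for subset in WT and *Cd300a-/-*. As measured the subset medians were 0.75 and 0.88, with 1 of 2 higher in WT and 2 of 2 in *Cd300a-/-*. However, 1 of the 2 genes, at 8.69, 7.56, 18.5 and 17.4 TPM, passed the limit only through SiglecF hi. These subset counts and medians are therefore partly fixed by the filter. The other genes of this list were under the limit. Some of them passed 0.5 by genotype, so the 2 counted genes do not describe the list.

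**Figure D2:**
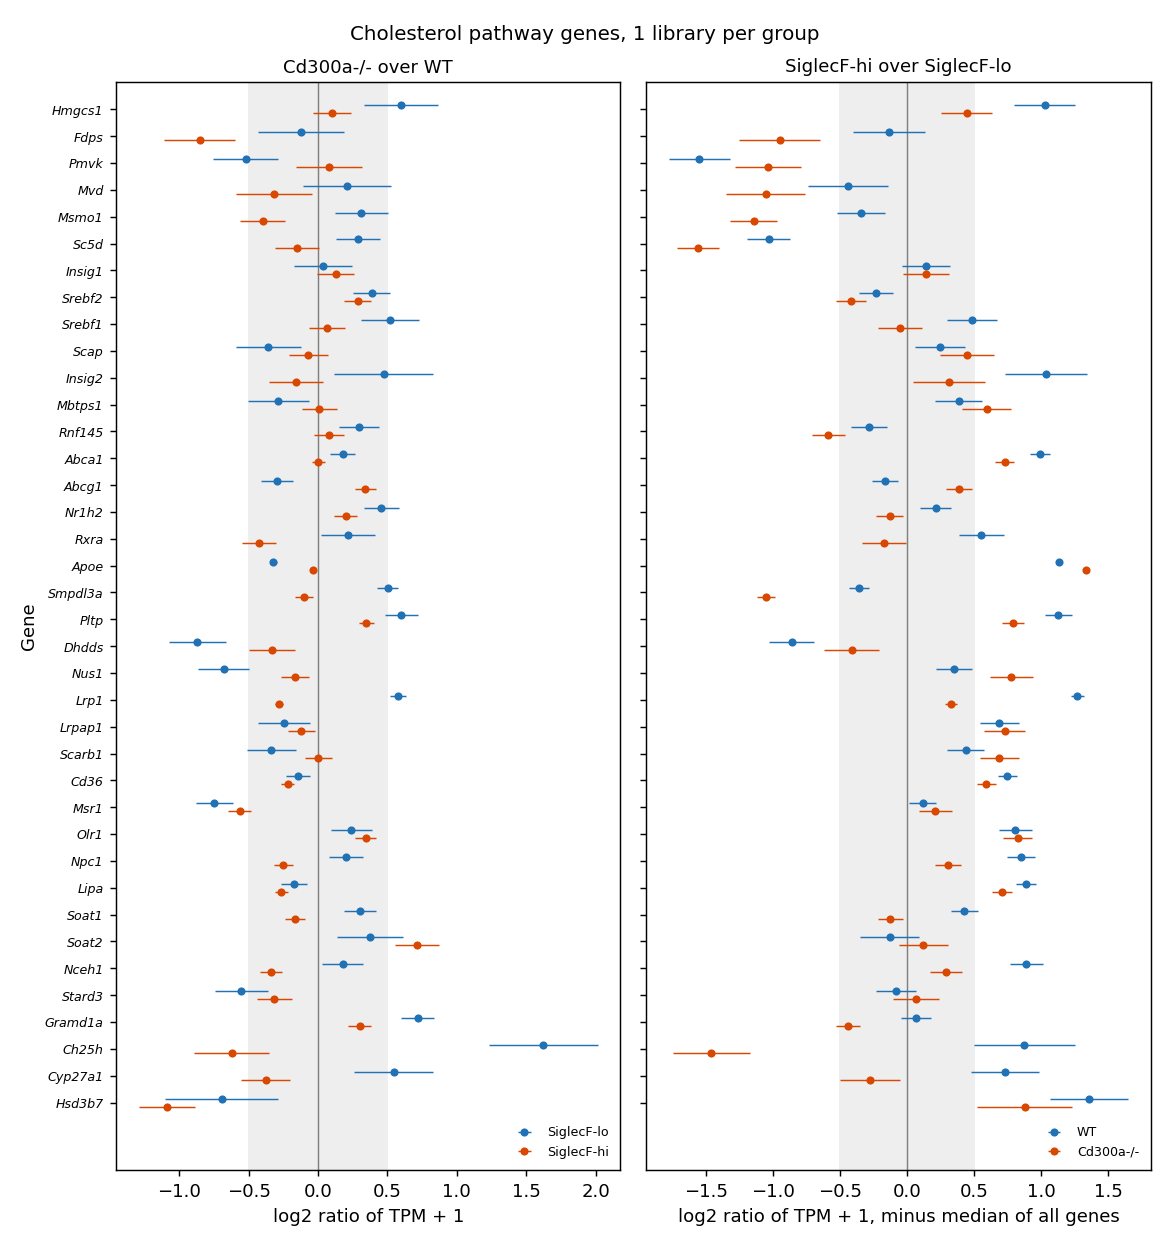
Log2 ratios of TPM + 1 for the pathway genes named in the text and above 10 TPM on average, *Cd300a-/-* over WT (left, as measured) and SiglecF hi over SiglecF lo (right, minus the median of all genes), with 95% counting intervals and a grey band from −0.5 to 0.5. On the left *Ch25h* lies furthest to the right in SiglecF lo, at 1.62, and on the right *Sc5d* furthest to the left, at −1.56 in *Cd300a-/-*.

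Markers of other cells also differed between the genotypes. The 6 endothelial markers summed to 149 TPM for WT and 55.6 TPM for *Cd300a-/-* among SiglecF lo cells, and to 78.7 and 105 TPM among SiglecF hi cells. Their most abundant gene, *Pecam1*, was at 57.5, 15.6, 23.2 and 30.4 TPM in that order. The 7 fibroblast markers, led by *Dcn* (302, 249, 586 and 465 TPM), summed to 964, 980, 2088 and 1475 TPM. In SiglecF lo 1 of the 6 above the limit was higher in *Cd300a-/-*, *Postn* (95.2 and 168 TPM, ratio 0.81), and 0 were lower, while in SiglecF hi 0 were higher and 3 lower. The 7 cardiomyocyte markers, led by *Mb* (7.96, 1.30, 13.0 and 31.2 TPM), summed to 49.3, 26.3, 54.5 and 93.9 TPM. The 2 monocyte markers, led by *Ly6c2* (756, 706, 270 and 226 TPM), summed to 821, 757, 335 and 280 TPM.

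The remaining markers were scarce. The 6 eosinophil markers, led by *Ccr3* at 1.49 to 5.49 TPM, summed to 2.14, 1.98, 6.95 and 5.81 TPM in the same order, and the granule protein genes *Epx* and *Prg2* had at most 3 counts in each library. The 4 dendritic cell markers, led by *Ccr7* (1.77, 2.59, 1.73 and 2.38 TPM), summed to 2.62, 4.20, 3.91 and 7.08 TPM. The 4 lymphocyte markers, led by *Cd79a* (0, 2.06, 1.56 and 5.85 TPM), summed to 3.80, 2.66, 2.93 and 7.34 TPM. The part of these markers in the genotype and subset ratios of the cholesterol genes was not tested.

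For the members whose log2(TPM + 1) ranged over at least 1 between libraries, the 3 genes of nearest profile over the 4 libraries were found by Euclidean distance after centring each profile on its mean. With 4 points many genes lie close to any profile. For *Hmgcs1* they were *Zfp429*, *Akt1s1* and *Cwc27*, at distances of 0.045, 0.048 and 0.088. For *Idi1* they were *Tbce*, *Atp8a1* and *Asnsd1*, at 0.10, 0.13 and 0.21. For *Abca1* they were *Lsm2*, *Gna12* and *Chchd3*, at 0.047, 0.069 and 0.069.

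Promoters are shown for *Hmgcs1* and *Abca1*, the genes that were both higher in WT SiglecF hi, and for *Srebf2*, which was not. RefSeq promoter sequences (GRCm38.p6) were matched by symbol for 5 of the 8 genes, *Hmgcs1*, *Idi1*, *Srebf2*, *Insig1* and *Abca1*, and the 250 bases before each start were searched on both strands. Capitals mark TCACNCCA, a sterol regulatory element core, CCAAT, the box bound by NF-Y, and CACGTG, an E-box. The windows, given 5′ to 3′ on the strand of the gene, are chr13:119690101-119690350 (plus strand) for *Hmgcs1*, chr15:82147019-82147268 (plus strand) for *Srebf2* and chr4:53159896-53160145 (minus strand) for *Abca1*.
Hmgcs1: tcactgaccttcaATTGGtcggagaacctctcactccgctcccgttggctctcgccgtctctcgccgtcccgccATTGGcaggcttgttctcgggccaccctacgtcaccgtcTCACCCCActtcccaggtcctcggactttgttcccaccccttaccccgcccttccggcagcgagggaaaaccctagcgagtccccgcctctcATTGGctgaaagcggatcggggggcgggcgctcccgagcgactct
Srebf2: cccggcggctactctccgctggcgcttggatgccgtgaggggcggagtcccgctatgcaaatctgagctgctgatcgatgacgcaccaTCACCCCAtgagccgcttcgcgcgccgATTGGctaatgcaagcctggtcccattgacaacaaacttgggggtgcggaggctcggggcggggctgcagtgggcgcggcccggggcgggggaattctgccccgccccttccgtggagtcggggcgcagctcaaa
Abca1: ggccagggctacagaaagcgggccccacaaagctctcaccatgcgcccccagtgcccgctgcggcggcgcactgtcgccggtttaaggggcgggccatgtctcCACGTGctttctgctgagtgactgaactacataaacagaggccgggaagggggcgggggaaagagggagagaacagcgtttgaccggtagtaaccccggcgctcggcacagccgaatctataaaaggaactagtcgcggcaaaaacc

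The core TCACNCCA lay in the windows of *Hmgcs1*, at −137 to −130 from the start, and *Srebf2*, at −162 to −155. It occurred in 3.67% of the 32851 promoter windows. The motif letters were chosen after the sequences were read, and this core was then shortened by 1 base from TCACNCCAC. The longer form, which contains the shorter, lay in *Hmgcs1* only among the 5 and in 1.05% of all windows. CCAAT lay in the windows of *Hmgcs1*, *Srebf2*, *Idi1* and *Insig1*, and in 33.8% of all windows. CACGTG lay in those of *Abca1* and *Insig1*, and in 6.02% of all. GGGCGG, the Sp1 box, lay in all 5 and in 32.7% of all, and AGGTCA, a nuclear receptor half-site, in *Hmgcs1* and *Insig1* and in 14.0% of all. In *Insig1* the half-site overlapped the E-box. Only these exact letters were searched, not variants of the half-site or spaced pairs of half-sites. The lack of AGGTCA in the *Abca1* window therefore does not show that it holds no nuclear receptor site. A match describes the letters of a window and is no evidence of binding.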

How the data were processed

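Poly(A)-selected, paired-end libraries were processed by the authors in CLC Genomics Workbench. The submitters' processing notes name GRCm39. The annotation release and the mapping settings are not given in the sources used here. The authors deposited raw counts per gene, RPKM and TPM for each library. They also deposited a signal column headed CPM, whose values are library-scaled counts times 1 further factor per library. TPM and counts were used here, and the RPKM and signal columns deposited were only inspected.

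Ratios were log2 of TPM + 1, with 95% intervals from the Poisson error of both counts. No test between conditions was made, since each comparison had 1 library a side. Alternatives were a pseudocount of 0.1, other TPM filters, a threshold of 1, edgeR 4.0.16 TMM factors, DESeq2 1.42.0 size factors, and centring the other way round. Both scalings were used without centring. Python 3.11.15, pandas 2.3.3 and R 4.3.3 were used.

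Named genes were the 8 members, pathway-list genes above the limit and past 0.5 in any comparison, some regulators whatever their values (among them *Nr1h2*, *Nr1h3*, *Srebf1*, *Insig2*, *Apoe*, *Soat1* and *Scap*), the most abundant gene of each marker list, and 3 nearest profiles per variable member. Further marker genes were named after their values were seen. The members and lists were chosen with earlier results of these data known. A few genes of the lists are counted but not reported here by name.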

Additional observations from a re-analysis of the deposited data

Results flagged for a closer look

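Several named genes and cell type markers had genotype ratios of opposite sign in the subsets, with each counting interval away from 0. The differences were not tested, since each group was 1 library. Values are the ratio in SiglecF lo minus the ratio in SiglecF hi on the log2 scale. Among the cholesterol genes, *Abcg1* differed by −0.64, from −0.30 in SiglecF lo to 0.34 in SiglecF hi. The widest gap of a pathway gene was that of *Ch25h*, 2.25, from 1.62 to −0.62. *Cyp27a1* differed by 0.92, *Lrp1* by 0.86, *Msmo1* by 0.71, *Rxra* by 0.64, *Smpdl3a* by 0.60, *Nceh1* by 0.52, *Soat1* by 0.47 and *Npc1* by 0.45. These 9 had positive ratios in SiglecF lo and negative ratios in SiglecF hi. The share of all genes with such opposite signs was not counted, so the number is not shown to be particular to these genes.

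Of the cell type markers above the limit, some had the same signs as these 9 genes. The fibroblast marker *Postn* differed by 1.23, from 0.81 to −0.42, *Col1a1* by 0.86 and the macrophage marker *Mrc1* by 0.73. Others had the reverse signs. The cardiomyocyte marker *Mb* differed by −3.17, from −1.96 to 1.20, and the endothelial markers *Pecam1* by −2.20, *Tie1* by −1.86, *Cdh5* by −1.74 and *Vwf* by −0.93. The neutrophil marker *G0s2* differed by −0.71 and the macrophage marker *Csf1r* by −0.28. Their part in the differences of the pathway genes was not tested. *Gna12*, a gene of nearest profile to *Abca1*, differed by 0.29, from 0.20 to −0.09.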

How the results depend on the processing

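Counts of cholesterol genes past the threshold were small, so 1 gene moved them. With a mean above 1 TPM, 2 were higher in *Cd300a-/-* in SiglecF lo (with *Idi1*), 1 was lower in WT SiglecF hi (*Sqle*), 2 were lower in *Cd300a-/-* SiglecF hi (with *Idi1*), and the synthesis enzymes' median there was −0.43. Over all 11472 genes then counted, the same calls numbered 2370, 2740 and 2832. With over 10 TPM in at least 1 library, *Idi1* again brought the counts higher by genotype in SiglecF lo and lower in *Cd300a-/-* SiglecF hi to 2. The matching counts over all 7660 genes were 1356 and 1827. With over 10 TPM in both libraries, 0 were higher by genotype in SiglecF lo, 1 was higher in SiglecF hi of WT and 2 in that of *Cd300a-/-*. Among all genes these were 684 of 5078, 883 of 5438 and 1032 of 5414. These filters change which genes are counted and the median subtracted from subset ratios. With the filter on both libraries, the new median brought *Hmgcs1* in the *Cd300a-/-* subset comparison from 0.44 to 0.55. At a threshold of 1, *Hmgcs1* in the WT subset comparison was the 1 call left, and the other counts were 0. In that comparison 336 of all 6523 genes were higher. TMM scaling gave 2 higher in *Cd300a-/-* SiglecF hi (*Hmgcs1* and *Abca1*), against 1580 of all 6523 genes. Without centring, 4 were higher and 0 lower there, and the synthesis enzymes' medians were 0.18 in WT and −0.34 in *Cd300a-/-*. That shift is the subtracted median.

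Of 277 single-gene values under the alternatives, 258 stayed within the counting interval, 19 moved beyond it, and none that passed the threshold changed sign. Many of the 258 could not move, because genotype ratios are not centred and a TPM filter leaves them as they are. Without centring, every subset ratio of the 8 genes moved in both genotypes. The 258 are therefore no measure of stability. Each comparison set 1 library against 1, so it holds no pairs. An additive fit of genotype and subset over the 4 libraries, which leaves 1 residual degree of freedom, was not run. Of the 8 genes, depth limits *Sqle* and *Idi1* most, with 46 and 65 counts in WT SiglecF lo. Animal and sorting variation cannot be estimated.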
